A study of Drosophila melanogaster with 18 samples.

Results

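The cytosolic ribosomal protein genes of Drosophila melanogaster were followed on 18 arrays of Schneider 2 (S2) cells, a line of embryonic origin that resembles blood cells of the fly. They were chosen from a list of 60 CG gene numbers, the numbering of the fly genome project: 36 genes of the large ribosomal subunit and 24 of the small subunit. A probe was taken as a member where its number on the array was one of these CG numbers, with 1 trailing letter allowed. This gave 41 of 7257 probes, 1 for each of 25 large-subunit and 16 small-subunit genes. The other 19 listed genes, 11 of the large and 8 of the small subunit, were not analysed here. The cells stood in 6 groups of 3 arrays each: mock-treated control cells given no double-stranded RNA, cells given that RNA to target XBP-1, and cells given it to target IRE1. Each kind was either left without dithiothreitol (DTT) or kept in it at 2 mM for 7.4 hours. Double-stranded RNA was given in 3 rounds at about 15 µg per ml, and RNA interference (RNAi) lowers the matching mRNA without removing the gene. Each array compared Cy5-labelled cDNA of 1 sample with 1 common Cy3-labelled reference, which mixed embryos with treated and untreated S2 cells. A value is therefore a ratio of the sample to a reference that also holds ribosomal protein mRNA, and not a level of that mRNA.

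Ribosomal proteins assemble with ribosomal RNA into the large subunit, which forms peptide bonds, and the small subunit, which reads the mRNA. Their mRNAs are among the most abundant of growing cells, are needed in matched amounts, and are translated in a manner that follows growth signals. DTT reduces disulfide bonds and so unfolds proteins in the endoplasmic reticulum. The unfolded protein response answers through IRE1, a membrane-bound kinase and ribonuclease that splices Xbp1 mRNA, so that the transcription factor XBP-1 is made, and in fly cells also cleaves other mRNAs at that membrane, and through the kinase PERK, which slows translation. The arrays asked how mRNA levels answer to DTT, and how far that answer needs XBP-1 or IRE1.

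The array with the fewest values held 3755 and the one with the most held 6696, so 7.73% to 48.3% of the probes were empty on an array. The members were measured more completely: 40 of 41 had a value on all 18 arrays, against 37.7% of all probes, and RpL22 had 15. Array medians over all probes ran from -0.81 to 0.24, and no scaling between arrays is stated. Every comparison of the members is therefore given on the values as deposited and again after each array's median was subtracted, here called centred. The deposited log ratios were read as log2 and as sample over reference, which the table does not state. Under that reading the muscle genes Mlc2, Tm2 and Mhc, which embryos express, averaged -4.94, -3.16 and -2.57, and the opposite sign would place them far above the reference. These were the lowest of the muscle genes. Act57B and up averaged -1.12 and -1.11, and Act87E went the other way at 0.08. Of 10 probes for muscle, neural and germ line genes of the embryo 1, Act87E, lay above the array median on average, and of 6 for blood cell genes 0 did. A ratio to a reference that holds S2 cells cannot show whether a blood cell gene was absent. The probe of the IRE1 gene went against its label: it read 0.13 to 2.55 on the 6 arrays labelled IRE1 RNAi and -1.08 to 0.41 on the other 12. The 2 probes of Xbp1 read -1.43 to -0.33 under XBP-1 RNAi and -1.36 to 0.11 in control cells, so their ranges overlapped. The groups are named below as the labels name them, and the IRE1 arrays as labelled.

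The ribosomal protein mRNAs lay above the median probe in every group, and both subunits moved together from array to array. As deposited, the mean over the members was 0.85, 0.02 and 0.17 on arrays A, B and C of control cells without DTT, and 1.42, 0.28 and 0.80 with DTT. It was 1.37, 0.55 and 0.85 under XBP-1 RNAi without DTT and 1.53, 1.08 and 0.27 with it. On the arrays labelled IRE1 RNAi it was 1.60, 0.56 and 0.57 without DTT and 1.06, 0.60 and 0.12 with DTT. Array A was the highest of its group in all 6 groups, and no group was separate from all others. Since each array took bulk RNA, fewer cells with an mRNA and less of it per cell cannot be told apart. The small-subunit mean differed from the large-subunit mean of the same array by -0.13 to 0.11, with a median difference of -0.03. By group the mean ± SD (n = 3 arrays) was 0.34 ± 0.44 in control cells without DTT and 0.83 ± 0.57 with DTT. The corresponding values were 0.92 ± 0.41 and 0.96 ± 0.63 under XBP-1 RNAi and 0.91 ± 0.60 and 0.59 ± 0.47 on the arrays labelled IRE1 RNAi. The difference between the subunits was smaller than the spread between arrays of 1 group in all 6.

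Centring placed the control cells without DTT below every other array. Their centred member means were 0.72, 0.58 and 0.58, while control cells with DTT gave 1.18, 0.77 and 1.02. XBP-1 RNAi gave 1.22, 0.84 and 0.91 without DTT and 1.77, 1.01 and 0.85 with DTT. The arrays labelled IRE1 RNAi gave 1.76, 0.78 and 1.06 without DTT and 1.70, 0.86 and 0.93 with DTT. On 3 arrays the members stood apart from the rest after centring: array A of XBP-1 RNAi with DTT and arrays A labelled IRE1 RNAi without and with DTT, at 1.77, 1.76 and 1.70, against at most 1.22 elsewhere. On these arrays the standard deviation among members was 0.69, 0.56 and 0.63, against 0.34 to 0.49 on the others, and 17.5%, 24.7% and 48.3% of the probes were empty, against 7.73% to 33.2% on the others. On array B of XBP-1 RNAi without DTT, which was not raised at 0.84, 33.2% were empty, and the part of removed spots in these values was not tested. The median member exceeded 83.6% to 97.9% of the values on an array, and 38 to 41 members lay above an array's median.

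**Figure D1:**
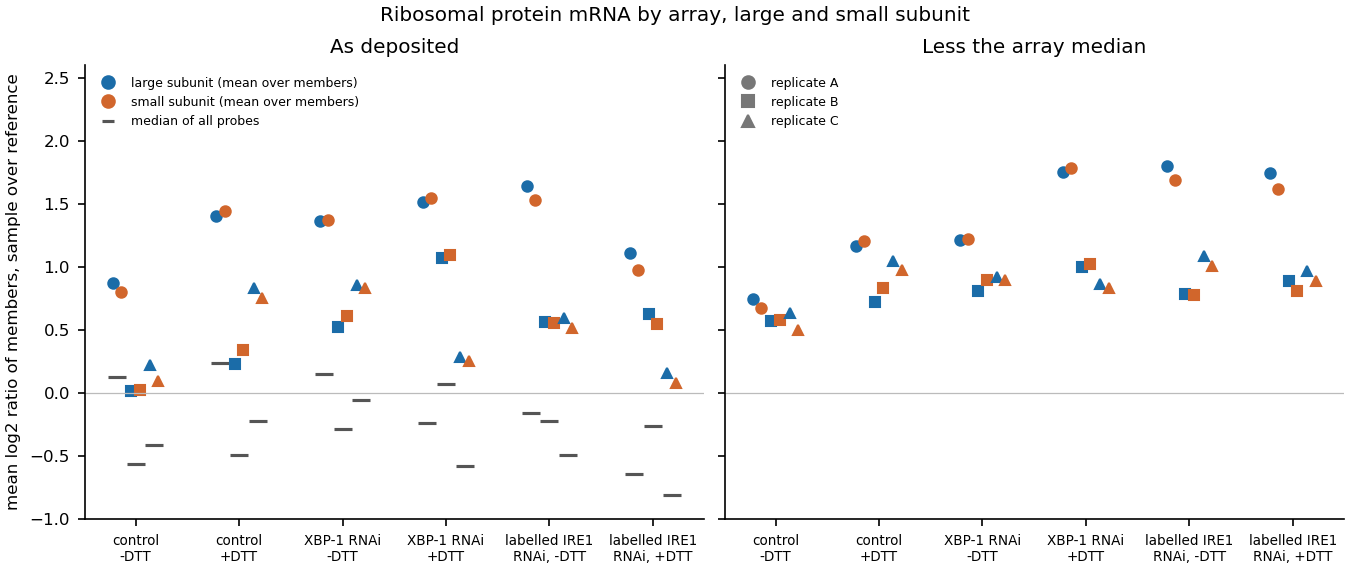
Mean log2 ratio of sample to reference over the large-subunit (blue) and small-subunit (orange) members on each of the 18 arrays, as deposited (left, with the median of all probes as dashes) and less the array median (right). Circles, squares and triangles are arrays A, B and C. Both subunits overlie each other on every array, and after centring control cells without DTT lie lowest while 3 arrays A lie near 1.7.

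The members were alike in level and in their course over the arrays, with 4 exceptions. Averaged over the arrays after centring, 40 of 41 lay above the median probe. RpS23 and RpL32 were among the highest, at 1.43 and 1.42. RpL22 was the only member below the median, at -0.42 over its 15 arrays, and RpS19a was next at 0.02, followed by RpL15 at 0.57. Over the 780 pairs of the 40 members measured on all arrays, the median Pearson correlation across the 18 arrays was 0.81 as deposited and 0.70 after centring. These arrays share the reference, and all members share each array's scaling, so the correlations are a description. Against the mean of the other members RpL24, RpS3 and RpL27A correlated most closely as deposited, at 0.99, 0.98 and 0.98. The least alike were RpLP0 at 0.38, RpL13 at 0.41, RpL22 at 0.50 and RpS19a at 0.51. After centring these 4 were at -0.22, -0.16, -0.04 and 0.22, and no other member lay below 0.60.

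**Figure D2:**
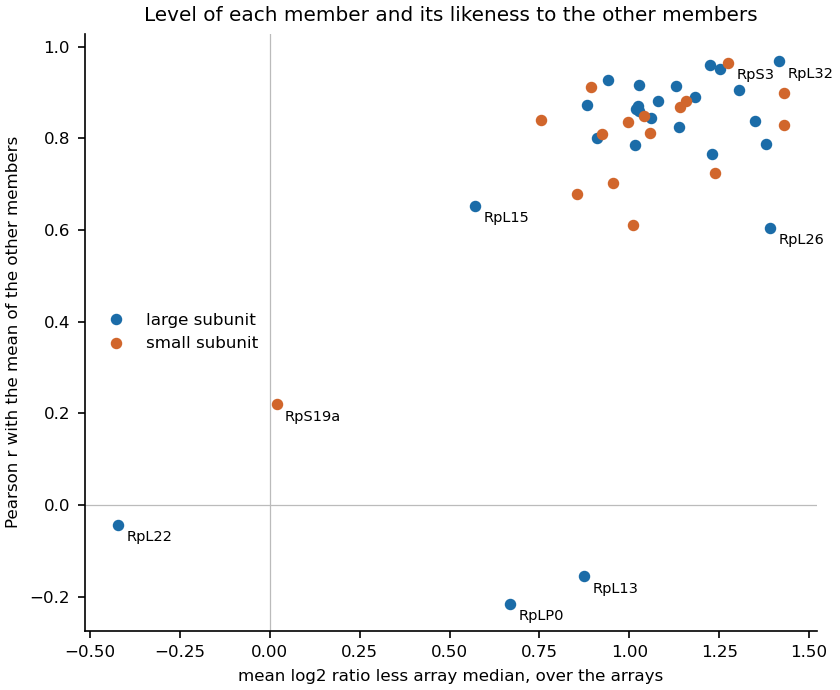
Mean centred log2 ratio of each member over its arrays (x axis) and its Pearson correlation with the mean of the other members over those arrays (y axis, centred values); blue is the large and orange the small subunit. RpLP0, RpL13, RpL22 and RpS19a lie apart from the main group of points, whose correlations start at 0.60.

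The stalk of the large subunit recruits the elongation factors. RpLP0 (CG number 7490) is its base, which anchors the acidic proteins to the ribosomal RNA. RpLP0 stood at 0.74, -0.02 and 0.54 in control cells without DTT and at 0.96, -0.20 and 0.55 with DTT. Under XBP-1 RNAi RpLP0 read 1.42, 0.22 and 0.92 without and 0.52, 0.81 and -0.04 with DTT. For RpLP0 the arrays labelled IRE1 RNAi gave 0.47, 0.76 and 0.86 without and -1.06, -0.05 and -0.19 with DTT. The 3 arrays with DTT labelled IRE1 RNAi all lay below the 3 without, while the control and the XBP-1 RNAi groups each overlapped with and without DTT. RpLP1 (CG number 4087) is the first acidic stalk protein. RpLP1 stood at 0.83, -0.34 and 0.12 in control cells without DTT and at 1.48, 0.54 and 0.95 with DTT. Under XBP-1 RNAi RpLP1 read 1.60, 0.75 and 1.01 without and 2.41, 1.09 and 0.22 with DTT. For RpLP1 the arrays labelled IRE1 RNAi gave 1.54, 0.48 and 0.67 without and 1.17, 0.83 and 0.15 with DTT. Each letter was higher with DTT in control cells, although the ranges overlapped, and array A of XBP-1 RNAi with DTT was the highest of its 18 values. RpLP2 (CG number 4918) is the partner of RpLP1 in the stalk. RpLP2 stood at 0.69, -0.10 and -0.02 in control cells without DTT and at 1.60, -0.10 and 0.74 with DTT. Under XBP-1 RNAi RpLP2 read 1.51, 0.31 and 0.39 without and 1.00, 1.16 and -0.15 with DTT. For RpLP2 the arrays labelled IRE1 RNAi gave 1.48, 0.43 and 0.67 without and 1.04, 0.56 and -0.16 with DTT. Array B of the control cells had the same value with and without DTT, and all 3 pairs of groups overlapped.

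Among the proteins of the large subunit outside the stalk, RpL5 (CG number 17489) carries the 5S ribosomal RNA into the subunit. RpL5 stood at 0.70, 0.25 and 0.17 in control cells without DTT and at 1.33, 0.44 and 0.93 with DTT. Under XBP-1 RNAi RpL5 read 1.05, 0.50 and 0.40 without and 1.38, 1.01 and 0.24 with DTT. For RpL5 the arrays labelled IRE1 RNAi gave 1.74, 0.34 and 0.49 without and 1.45, 0.86 and 0.30 with DTT. Each letter was higher with DTT in control cells, with overlapping ranges. RpL32 (CG number 7939), known as rp49, is widely used as a reference transcript in fly work. RpL32 stood at 1.11, 0.39 and 0.30 in control cells without DTT and at 1.92, 0.84 and 1.21 with DTT. Under XBP-1 RNAi RpL32 read 1.92, 0.72 and 1.09 without and 2.38, 1.57 and 0.60 with DTT. For RpL32 the arrays labelled IRE1 RNAi gave 2.21, 0.63 and 0.77 without and 1.69, 0.87 and 0.45 with DTT. Each control letter was higher with DTT, and array A was the highest of its group in all 6 groups. RpL10Ab (CG number 7283) belongs to the mobile stalk by which spent tRNA leaves the ribosome. RpL10Ab stood at 0.99, 0.35 and 0.14 in control cells without DTT and at 1.55, 0.16 and 0.34 with DTT. Under XBP-1 RNAi RpL10Ab read 1.79, 0.85 and 0.96 without and 1.65, 0.62 and -0.11 with DTT. For RpL10Ab the arrays labelled IRE1 RNAi gave 2.05, 0.78 and 0.58 without and 1.49, 1.15 and 0.30 with DTT. Each letter under XBP-1 RNAi was lower with DTT, with overlapping ranges. RpL35 (CG number 4111) lies at the exit of the tunnel for the new chain. RpL35 stood at 0.97, -0.35 and -0.03 in control cells without DTT and at 1.41, -0.59 and 0.94 with DTT. Under XBP-1 RNAi RpL35 read 0.99, 0.24 and 0.56 without and 2.23, 1.21 and 0.77 with DTT. For RpL35 the arrays labelled IRE1 RNAi gave 1.91, 0.52 and 0.03 without and 1.68, 0.77 and 0.26 with DTT. Each letter under XBP-1 RNAi was higher with DTT, again with overlapping ranges. RpL24 (CG number 9282) contacts the small subunit across the interface. RpL24 stood at 1.16, -0.04 and 0.27 in control cells without DTT and at 1.84, 0.27 and 0.84 with DTT. Under XBP-1 RNAi RpL24 read 1.87, 0.65 and 0.88 without and 2.12, 1.40 and 0.08 with DTT. For RpL24 the arrays labelled IRE1 RNAi gave 2.04, 0.80 and 0.77 without and 1.46, 0.69 and 0.12 with DTT. Array A was the highest of its group in all 6 groups, as in the mean over the members.

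The remaining named proteins of the large subunit are structural. RpL27A (CG number 15442) was 1 of the 3 members most like the rest. RpL27A stood at 0.95, 0.10 and 0.45 in control cells without DTT and at 1.78, 0.65 and 1.06 with DTT. Under XBP-1 RNAi RpL27A read 1.78, 0.77 and 0.96 without and 1.71, 1.30 and 0.35 with DTT. For RpL27A the arrays labelled IRE1 RNAi gave 1.92, 0.78 and 0.97 without and 1.12, 0.86 and 0.18 with DTT. Array A was again the highest in all 6 groups, and the control groups overlapped. RpL13 (CG number 4651) was among the 4 members least like the rest. RpL13 stood at 0.56, -0.13 and 0.55 in control cells without DTT and at 1.14, 0.52 and 1.00 with DTT. Under XBP-1 RNAi RpL13 read 1.08, 0.71 and 0.93 without and 0.41, 1.21 and 0.39 with DTT. For RpL13 the arrays labelled IRE1 RNAi gave 0.68, 0.76 and 0.81 without and -0.21, 0.24 and 0.25 with DTT. The 3 arrays with DTT labelled IRE1 RNAi lay below the 3 without, and the control groups overlapped only narrowly. RpL22 (CG number 7434) binds RNA and has a relative, RpL22-like, that is known for its use in the testis; arrays C of XBP-1 RNAi without DTT and A of both groups labelled IRE1 RNAi gave it no value. RpL22 stood at -0.75, -1.42 and -1.25 in control cells without DTT and at -0.02, -0.45 and -0.63 with DTT. Under XBP-1 RNAi RpL22 read -0.44 and -0.57 without and -1.02, 0.13 and -0.68 with DTT. For RpL22 the arrays labelled IRE1 RNAi gave -0.84 and -1.11 without and -0.08 and -1.18 with DTT. All 3 control arrays with DTT lay above the 3 without, and 1 of its 15 values was above 0. RpL18 (CG number 8615) was among the members lowest in the control effect of DTT. RpL18 stood at 1.20, 0.09 and 0.73 in control cells without DTT and at 1.06, -0.08 and 0.86 with DTT. Under XBP-1 RNAi RpL18 read 1.45, 0.09 and 0.72 without and 1.88, 0.80 and 0.14 with DTT. For RpL18 the arrays labelled IRE1 RNAi gave 1.76, 0.50 and 0.71 without and 0.79, 0.40 and 0.33 with DTT. Control arrays A and B were lower with DTT and array C was higher.

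Of the last 3 in the large subunit, RpL7A (CG number 3314) was among the members with the highest effect of DTT under XBP-1 RNAi. RpL7A stood at 1.19, -0.05 and 0.26 in control cells without DTT and at 1.84, 0.34 and 0.95 with DTT. Under XBP-1 RNAi RpL7A read 1.11, -0.08 and 0.90 without and 2.65, 0.65 and 0.46 with DTT. For RpL7A the arrays labelled IRE1 RNAi gave 2.43, 0.55 and 0.92 without and 1.52, 0.56 and 0.26 with DTT. Array A of XBP-1 RNAi with DTT, at 2.65, was the highest value of any member, and array C of that group was lower with DTT. RpL27 (CG number 4759) was likewise among those members. RpL27 stood at 1.28, -0.03 and 0.15 in control cells without DTT and at 1.81, -0.01 and 1.20 with DTT. Under XBP-1 RNAi RpL27 read 1.30, 0.56 and 0.90 without and 2.35, 1.34 and 0.74 with DTT. For RpL27 the arrays labelled IRE1 RNAi gave 2.07, 0.91 and 0.51 without and 2.19, 1.12 and 0.27 with DTT. Arrays A and B under XBP-1 RNAi were higher with DTT and array C was lower. RpL15 (CG number 17420) stood among the highest effects of DTT on the arrays labelled IRE1 RNAi. RpL15 stood at 0.33, -0.39 and -0.41 in control cells without DTT and at 0.83, -0.42 and 0.59 with DTT. Under XBP-1 RNAi RpL15 read 0.59, -0.03 and 0.34 without and 0.30, 0.97 and 0.06 with DTT. For RpL15 the arrays labelled IRE1 RNAi gave 0.86, 0.38 and -0.15 without and 1.16, 0.54 and -0.09 with DTT. Each letter of those arrays was higher with DTT, by at most 0.30.

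In the small subunit, RpS19a (CG number 4464) is the counterpart of a human protein that is needed to mature the subunit and whose loss causes an inherited anemia. RpS19a stood at -0.70, -1.06 and -0.74 in control cells without DTT and at 0.55, 0.29 and 0.02 with DTT. Under XBP-1 RNAi RpS19a read -0.13, -0.12 and -0.26 without and 0.46, 0.82 and -0.38 with DTT. For RpS19a the arrays labelled IRE1 RNAi gave -0.48, -0.28 and -0.57 without and -0.66, -0.39 and -0.86 with DTT. The 3 control arrays with DTT all lay above the 3 without, while the other pairs of groups overlapped. RpS2 (CG number 5920) lies beside the path by which the mRNA enters. RpS2 stood at 0.85, 0.20 and 0.34 in control cells without DTT and at 1.25, -0.54 and 0.44 with DTT. Under XBP-1 RNAi RpS2 read 1.62, 0.60 and 0.90 without and 1.35, 0.76 and -0.23 with DTT. For RpS2 the arrays labelled IRE1 RNAi gave 1.68, 0.65 and 0.71 without and 0.34, -0.14 and -0.26 with DTT. The 3 arrays with DTT labelled IRE1 RNAi lay below the 3 without, and control array B was lower with DTT. RpS3 (CG number 6779) lies at the same entry. RpS3 stood at 0.97, 0.08 and 0.36 in control cells without DTT and at 1.80, 0.53 and 0.89 with DTT. Under XBP-1 RNAi RpS3 read 1.83, 0.90 and 1.13 without and 1.89, 1.30 and 0.50 with DTT. For RpS3 the arrays labelled IRE1 RNAi gave 1.88, 0.69 and 1.05 without and 1.39, 0.80 and 0.13 with DTT. Each control letter was higher with DTT, with overlapping ranges, and array A was the highest in all 6 groups. RpS6 (CG number 10944) is the main substrate of S6 kinase, a growth-regulated kinase. RpS6 stood at 0.99, -0.03 and 0.67 in control cells without DTT and at 1.80, 0.46 and 1.19 with DTT. Under XBP-1 RNAi RpS6 read 1.46, 0.51 and 1.03 without and 1.64, 0.95 and 0.31 with DTT. For RpS6 the arrays labelled IRE1 RNAi gave 1.52, 0.49 and 0.98 without and 1.27, 0.58 and 0.20 with DTT. Each control letter was higher with DTT and the other pairs of groups had no common direction over the letters.

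Of the other small-subunit proteins, RpS18 (CG number 8900) sits in the head of the subunit, facing the large one. RpS18 stood at 0.55, 0.27 and 0.12 in control cells without DTT and at 1.42, 0.47 and 0.91 with DTT. Under XBP-1 RNAi RpS18 read 1.43, 1.17 and 0.97 without and 1.88, 1.66 and 0.18 with DTT. For RpS18 the arrays labelled IRE1 RNAi gave 2.02, 0.54 and 0.76 without and 1.35, 0.14 and -0.14 with DTT. It was higher at each letter in control cells and lower at each letter on the arrays labelled IRE1 RNAi, with overlap in both. RpS4 (CG number 11276) is a core protein of the subunit. RpS4 stood at 0.72, 0.05 and 0.01 in control cells without DTT and at 1.42, 0.34 and 0.47 with DTT. Under XBP-1 RNAi RpS4 read 1.25, 0.97 and 0.61 without and 1.41, 0.60 and 0.45 with DTT. For RpS4 the arrays labelled IRE1 RNAi gave 1.36, 0.16 and 0.07 without and 1.07, 0.79 and 0.02 with DTT. Each control letter was higher with DTT, with overlapping ranges.

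**Figure D3:**
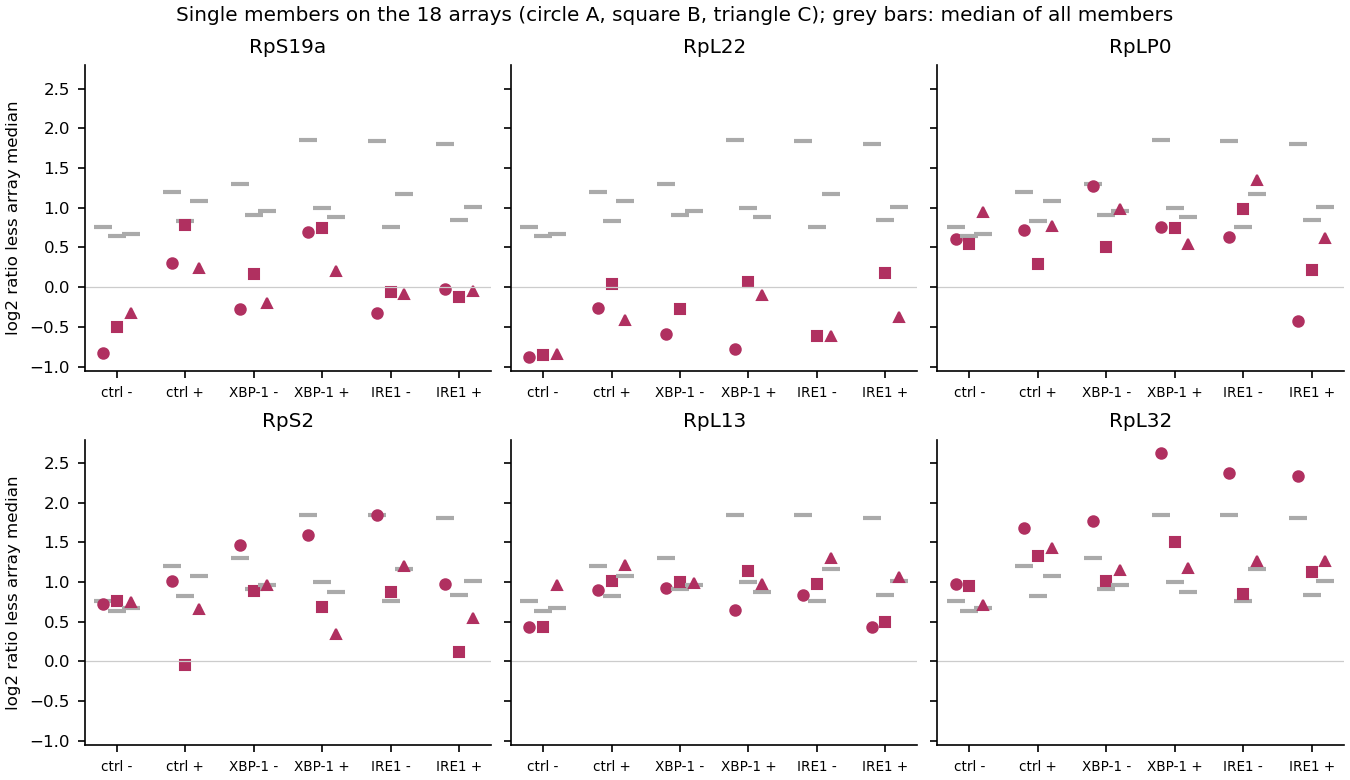
Centred log2 ratios of 6 members on the arrays (circle A, square B, triangle C); control (ctrl), XBP-1 RNAi and arrays labelled IRE1 RNAi, without (-) and with (+) DTT. Grey bars mark the median of all members on the same array. RpS19a in control cells lies higher with DTT than without, RpLP0 on the arrays labelled IRE1 RNAi lies lower, and RpL32 follows the grey bars, including the 3 raised arrays A.

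In control cells 39 of 41 ribosomal protein mRNAs read higher with DTT than without, and 1 of them, RpS19a, passed the test. The difference with minus without DTT had a median over the members of 0.51 and a range of -0.08 to 1.12. Over all 5935 probes tested the median was 0.15, and 61.2% were above 0. RpS19a rose by 1.12 ± 0.36 on the log2 scale (SE), a 2.17-fold change with a 95% interval of 0.39 to 1.85 in log2 units (limma, Benjamini-Hochberg adjusted p = 0.0339). Of all probes tested, 7.16% rose and 4.5% fell by the same test, so 1 of 41 members higher is below that background. Among the next differences were RpLP1 at 0.79 ± 0.44 and RpL22 at 0.77 ± 0.39, with adjusted p of 0.319 and 0.25 in limma. At the low end were RpS2 at -0.08 ± 0.43, RpL18 at -0.06 ± 0.43 and RpLP0 at 0.02 ± 0.40. The large-subunit median was 0.49 and the small-subunit median 0.60. Half-widths of the members' 95% intervals ran from 0.73 to 1.00, wider than the median difference.

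Letter by letter, the median over members of the control effect was 0.58, 0.25 and 0.66 for A, B and C, against 0.10, 0.09 and 0.35 over all probes. After centring these member medians were 0.47, 0.18 and 0.47, so array B showed the smallest shift on both scales. Centred, the median over members in the fit was 0.38 against 0.03 over all probes, with 38 of 41 above 0. RpS19a stood at 1.00 ± 0.21 with an adjusted p of 0.00182 (limma), beside 11.7% of all probes higher and 12% lower. The 3 control arrays with DTT lay wholly above the 3 without for 3 of 41 members as deposited, against 15.6% of all probes, and for 15 of 41 after centring, against 24.7%. Fitted with the replicate letter as a block after centring, 6 members rose: RpS19a, RpL22, RpL13, RpL27A, RpS7 and RpS13, the last 2 named after their values were seen. Centring alone already gave 11.7% of all probes higher. The share with the block is not given here, so the 6 are not read as a result about the members. The call of RpS19a on the values as deposited was lost when control array B or C without DTT, or any 1 control array with DTT, was left out. The median over the members as deposited was 0.21 without array A with DTT, 0.32 without array B without DTT, and 0.81 without array B with DTT. Among the markers of embryo tissues and of blood cells, which S2 cells resemble, the muscle actins Act57B and Act87E fell with DTT in control cells, at -1.90 ± 0.40 and -2.06 ± 0.38, and so did the scavenger receptor crq of blood cells, at -1.60 ± 0.37 (limma, adjusted p = 0.000775, 9.43e-05 and 0.002). These were 2 of 10 embryo tissue markers and 1 of 4 blood cell markers tested, and none of the rest passed as deposited, while the germ line gene vas fell as well after centring. The 2 actins also fell under XBP-1 RNAi, at -1.27 ± 0.40 and -1.72 ± 0.38, and on the arrays labelled IRE1 RNAi, at -1.95 ± 0.40 and -2.08 ± 0.38. Of the blood cell markers crq fell under XBP-1 RNAi, at -1.44 ± 0.37, and Pxn on the arrays labelled IRE1 RNAi, at -1.32 ± 0.40. Centred, Pxn fell under XBP-1 RNAi too, and the neural gene elav rose in both RNAi groups. The part of these markers in the members' values was not tested.

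**Figure D4:**
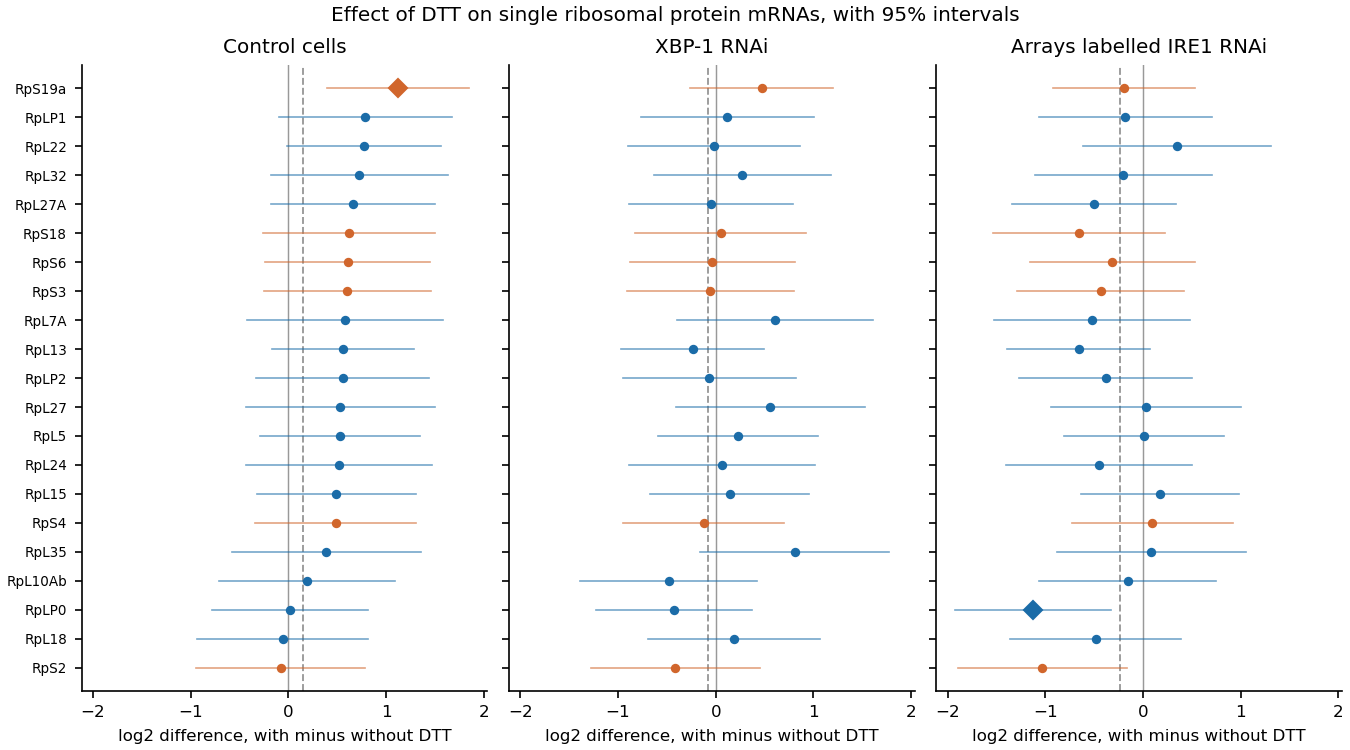
Difference in log2 ratio with minus without DTT for the members described above array by array, as deposited, in control cells, under XBP-1 RNAi and on arrays labelled IRE1 RNAi, with 95% intervals from limma; blue is the large and orange the small subunit. Diamonds mark adjusted p under 0.05 (RpS19a in control cells, RpLP0 on arrays labelled IRE1 RNAi), the solid line is 0 and the dashed line the median of all probes tested.

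Under XBP-1 RNAi no common shift with DTT was seen among the ribosomal protein mRNAs on the values as deposited. The median member differed by 0.05, 22 of 41 were above 0, and all probes had a median of -0.08. By limma 0 of 41 passed the threshold and 0 had an unadjusted p under 0.05, while 4.51% of all probes rose and 11.3% fell. The highest differences were RpL35 at 0.81 ± 0.48 and RpL7A at 0.61 ± 0.50, followed by RpL27 at 0.56 ± 0.48. The lowest were RpL10Ab at -0.48 ± 0.45, RpLP0 at -0.42 ± 0.40 and RpS2 at -0.41 ± 0.43. The medians by letter were 0.17, 0.53 and -0.57, so arrays A and B pointed up and array C down. All probes pointed the same way on B and C, at -0.34, 0.47 and -0.44 for the 3 letters. The large-subunit median was 0.07 and that of the small subunit 0.01.

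Centring changed the call of 1 member in this comparison. RpS19a stood at 0.65 ± 0.21 (limma, adjusted p = 0.0253) against 0.47 ± 0.36 as deposited (adjusted p = 0.457). Its centred values were -0.28, 0.17 and -0.20 without DTT and 0.70, 0.75 and 0.20 with DTT, so the highest array without and the lowest with DTT lay close together. Of all probes, 14.5% rose and 16.5% fell after centring. Its 3 arrays with DTT lay above the 3 without, as for 6 of 40 members in all, against 22.6% of all probes; as deposited this held for 0 of 40, against 11.3%. The centred median over members was 0.23, and -0.10 without array A of the group with DTT, 1 of the 3 arrays that stood apart. Centred, 20 of 25 large-subunit and 13 of 16 small-subunit members were above 0. By letter the centred member medians were 0.56, 0.17 and -0.05 for A, B and C, against 0.05, 0.11 and 0.08 over all probes. RpL35 passed with the replicate block, at 0.81 ± 0.32 as deposited (limma, adjusted p = 0.0489) and 0.99 ± 0.27 centred (0.00601). Since the block fit as deposited gave all probes 1 common variance, its p-values may be too small. The share of all probes called with the block is not given here, so the call of RpL35 is not read as a result. With the block and centring 5 members rose, RpL35, RpS19a, RpL7A and RpL27 among them. Centring alone gave 14.5% of all probes higher, so this count is not read as a result about the members. The centred call of RpS19a was lost without array A or C of XBP-1 RNAi without DTT, or array A or B with DTT.

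Most ribosomal protein mRNAs read lower with DTT on arrays labelled IRE1 RNAi, by about as much as the median probe, and RpLP0 fell. The shift was not shared by all letters. The median member difference was -0.31 against -0.24 over 5833 probes, and 6 of 41 members were above 0, against 31.8% of all probes. By letter the member medians were -0.53, 0.07 and -0.36 for A, B and C, against -0.59, 0.00 and -0.31 over all probes, so letter B did not read lower. RpLP0 fell by 1.13 ± 0.40, with a 95% interval of -1.93 to -0.33 (limma, adjusted p = 0.0488). That was 2.19-fold lower. Among all probes 10.2% fell and 3.43% rose, so 1 of 41 members lower is below that background too. RpS2 was at -1.03 ± 0.43 with an adjusted p of 0.108 in limma, and RpL13 at -0.66 ± 0.36 with 0.271. The highest were RpL22 at 0.34 ± 0.48, from 2 arrays in each group, RpL15 at 0.17 ± 0.40 and RpS4 at 0.10 ± 0.41. The large-subunit median was -0.38 and the small-subunit median -0.31.

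Most of that downward shift went with the array medians. After centring the median member difference was -0.03, with 18 of 41 above 0 and a median of 0.01 over all probes. RpLP0 then differed by -0.85 ± 0.27 (limma, adjusted p = 0.0284), beside 13.7% of all probes lower and 8.83% higher. Its centred values were 0.63, 0.98 and 1.35 without DTT and -0.42, 0.21 and 0.62 with DTT, which did not overlap. Groups did not overlap for 4 of 40 members as deposited, all lower with DTT (RpL13, RpLP0, RpS2 and RpS5a), against 27.5% of all probes, and for 1 of 40 centred (RpLP0), against 19.7%. With the replicate block RpS2 passed as well, at an adjusted p of 0.00958 as deposited and 0.0123 centred (limma). As deposited the block fit gave all probes 1 common variance, so its p-values may be too small. The share of all probes called with the block is not given here, so the call of RpS2 is not read as a result. The centred median over members was 0.22 without array A of the group without DTT and -0.23 without array A of the group with DTT. The call of RpLP0 on deposited values was lost when any 1 of the 3 arrays without DTT was left out, or array A with DTT, control array C without or with DTT, or array A or B of XBP-1 RNAi with DTT, and also under quantile normalization and with a minimum of 1 value per group. Centred, it was lost without array C of the group without DTT or array A of the group with DTT, the array with 48.3% empty probes.

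**Figure D5:**
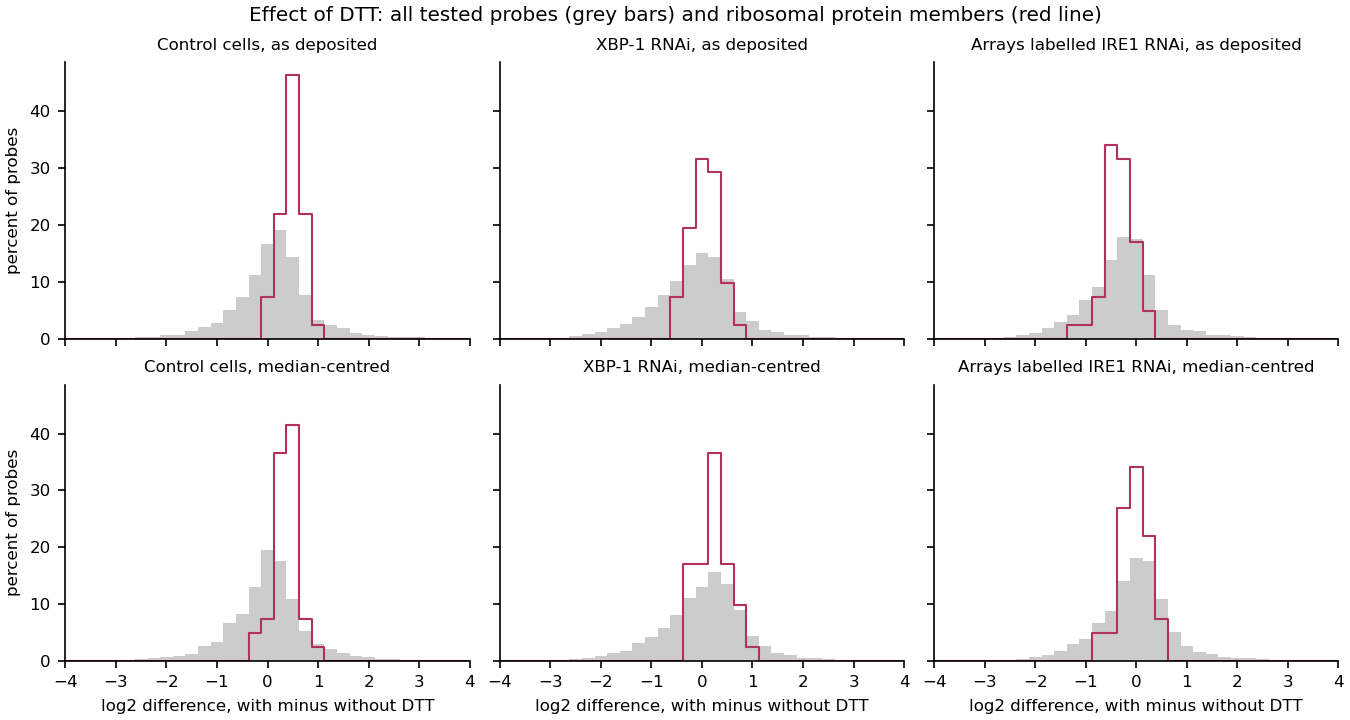
Distribution of the effect of DTT (log2 difference, with minus without) over all tested probes (grey bars, percent of probes) and over the 41 members (red line), as deposited (top) and centred (bottom), for control cells, XBP-1 RNAi and arrays labelled IRE1 RNAi. The members form a narrower distribution than all probes in each panel, and lie to the right of the median probe in control cells.

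The members varied less among themselves than probes did at large. The standard deviation of the effect of DTT over members was 0.24 in control cells, 0.29 under XBP-1 RNAi and 0.29 on the arrays labelled IRE1 RNAi. Over all probes it was 0.80, 0.86 and 0.78. Probes at large include many with fewer values per group, so the widths describe these tables and were not tested.

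The effect of DTT was lower on the arrays labelled IRE1 RNAi than in control cells for 41 of 41 members, but for none beyond the error after adjustment. The difference of the effects, IRE1 RNAi minus control, had a median of -0.85 over members and -0.44 over all probes, of which 20.1% were above 0. RpS19a was furthest, at -1.31 ± 0.51 (interval -2.34 to -0.28; limma, adjusted p = 0.453), then RpS18 at -1.28 ± 0.62 (0.588), RpL13 at -1.22 ± 0.51 (0.505) and RpLP0 at -1.15 ± 0.56 (0.588). By limma 0 of 41 members passed, and 0.0894% of all probes passed. Centred, the median was -0.45 against -0.07, with 5 of 41 above 0, and RpS19a stood at -0.91 ± 0.30 (adjusted p = 0.192, limma), where 0 members and 0.983% of all probes passed. For XBP-1 RNAi minus control the median was -0.54 against -0.28 over all probes, and -0.23 against 0.03 after centring. There 0 members passed by limma on either scale, and 0.62% of all probes passed as deposited and 1.5% centred. Both differences share the 6 control arrays. The 95% intervals of single members spanned 1.03 to 1.42 to each side, which is wider than the median difference on either side of 0. RpS19a, called in control cells, and RpLP0, called on the arrays labelled IRE1 RNAi, are therefore not shown to respond differently between the cell groups.

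Without DTT, all 41 members read higher under either RNAi than in control cells, and none passed the test. Under XBP-1 RNAi the median difference from control was 0.58, with a range of 0.08 to 1.01, against 0.22 over all probes, of which 74.7% were above 0. For the arrays labelled IRE1 RNAi it was 0.54, from 0.17 to 1.08, against 0.03 over all probes, of which 54.9% were above 0. Limma called 0 members in each, and 0% of all probes, while 3 and 2 of 41 members had an unadjusted p under 0.05. A share of about 0.05 passes that cutoff in theory where no group differs, but the share over all probes here is not given. These members are therefore not read as a result. Those members, named after their values were seen, were RpL7, RpS23 and RpLP1 under XBP-1 RNAi, and RpS12 and RpL7 on the arrays labelled IRE1 RNAi. RpL7 differed by 0.97 ± 0.38 and 0.81 ± 0.38, RpS23 by 1.01 ± 0.41 under XBP-1 RNAi, and RpS12 by 1.08 ± 0.46 on the arrays labelled IRE1 RNAi, with adjusted p of 0.977 or above. Both comparisons share the 3 control arrays without DTT, which also enter the control effect of DTT with the opposite sign. Since the control cells were mock treated, an effect of the targets and one of double-stranded RNA as such cannot be told apart.

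By letter the member medians of XBP-1 RNAi minus control without DTT were 0.58, 0.58 and 0.61 as deposited and 0.56, 0.31 and 0.26 centred. For the arrays labelled IRE1 RNAi they were 0.75, 0.53 and 0.39 and 1.04, 0.19 and 0.47. Over all probes the medians for XBP-1 RNAi were 0.08, 0.16 and 0.45 as deposited and 0.06, -0.11 and 0.10 centred. Those for the arrays labelled IRE1 RNAi were -0.235, 0.36 and 0.10 as deposited and 0.055, 0.02 and 0.18 centred. The member medians were all above 0, but each letter is given on both scales and all use the same 3 control arrays without DTT. Centred, the fitted median was 0.36 for XBP-1 RNAi, with 37 of 41 above 0, and 0.55 for the arrays labelled IRE1 RNAi, with 41 of 41. These 2 medians exceeded the differences of 91.8% and 96.0% of all probes tested. The median for the arrays labelled IRE1 RNAi was 0.29 without array A of that group, which stood apart. The 3 RNAi arrays lay wholly above the 3 control arrays for 7 of 40 members under XBP-1 RNAi as deposited, beside 8.51% of all probes, and for 18 of 40 centred, beside 9.82%. On the arrays labelled IRE1 RNAi this held for 3 of 40 as deposited, beside 1.95%, and for 11 of 40 centred, beside 6.07%. Small-subunit members made up 10 of the 18 and 6 of the 11, where 16 small-subunit and 24 large-subunit members were measured. The split between the subunits was not tested.

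With DTT the letters pointed different ways. By letter the member medians of XBP-1 RNAi minus control were 0.09, 0.77 and -0.61 as deposited and 0.57, 0.21 and -0.25 centred. Over all probes they were -0.42, 0.62 and -0.41, and 0.06, 0.06 and -0.05 centred. The member medians of the arrays labelled IRE1 RNAi minus control were -0.34, 0.33 and -0.70, and 0.55, 0.10 and -0.11 centred. Over all probes these were -0.91, 0.28 and -0.62, and -0.03, 0.05 and -0.03 centred. As deposited, the median probe thus pointed the same way as the median member except at letter A of XBP-1 RNAi. In the fit XBP-1 RNAi minus control had a median of 0.15 over members, against -0.04 over all probes, and 0.25 after centring. The arrays labelled IRE1 RNAi minus control had -0.27, against -0.40, and 0.12 centred, so the direction of this median turned with the scaling. By limma 0 members passed in either comparison on either scale, beside 2.06% and 2.11% of all probes as deposited and 4.08% and 4.94% centred. With the replicate block and centring RpL35 was among the 2 that passed in the first, and RpL10Ab passed in the second. The share of all probes called in that fit is not given here, so these calls are not read as a result about the members. RpS19a was the lowest on the arrays labelled IRE1 RNAi, at -0.92 ± 0.36 (limma, adjusted p = 0.206), and its 3 values there lay below all 3 control values on both scales. That held for 2 of 40 members as deposited, RpS19a and RpL13, against 18.3% of all probes, and for 1 of 40 centred, against 11.8%.

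Other genes of the translation machinery give a frame for these values. Of 20 further probes for cytosolic ribosomal proteins and close relatives, 18 were tested for the effect of DTT, with medians of 0.44, 0.08 and -0.33 in control cells, under XBP-1 RNAi and on the arrays labelled IRE1 RNAi. In limma 0 of these passed in the first and second, and 1 fell in the third, RpLP0-like, a nucleolar relative of RpLP0, at -1.32 ± 0.45 (adjusted p = 0.0433). After centring 0 of the 18 passed in any of the 3, and RpLP0-like had an adjusted p of 0.0792 in limma. RpS19b, the paralog of RpS19a, averaged 0.47 over its 16 values, above RpS19a at -0.25, although ratios of 2 probes to the reference do not rank their levels. Among mitochondrial ribosomal proteins, which build the ribosome of the organelle, 40 were tested, with medians of -0.07, -0.60 and -0.72. In control cells 1 rose, mRpL28 at 1.79 ± 0.36, and 1 fell, mRpS30 at -1.22 ± 0.42 (limma, adjusted p = 0.000342 and 0.0463). Under XBP-1 RNAi 1 rose and 6 fell, and on the arrays labelled IRE1 RNAi 1 rose and 9 fell. Of all probes 7.16%, 4.51% and 3.43% rose and 4.5%, 11.3% and 10.2% fell in control cells, under XBP-1 RNAi and on the arrays labelled IRE1 RNAi. mRpL28 was the 1 that rose in both RNAi groups, at 1.04 ± 0.36 and 1.08 ± 0.36. mRpL2 fell in both, at -1.92 ± 0.46 and -1.57 ± 0.51, as did mRpL9 at -1.45 ± 0.42 and -1.55 ± 0.42. After centring the counts were 3 higher and 3 lower in control cells, 1 and 9 under XBP-1 RNAi, and 1 and 11 on the arrays labelled IRE1 RNAi. On that scale 11.7%, 14.5% and 8.83% of all probes rose and 12%, 16.5% and 13.7% fell.

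Of 42 translation factors tested in control cells 2 rose and 0 fell, the exchange factor subunits eIF2Bgamma at 1.66 ± 0.48 and eIF2Bdelta at 1.45 ± 0.37 (limma, adjusted p = 0.0155 and 0.0061), beside 7.16% of all probes that rose. Both also rose under XBP-1 RNAi, by 1.50 ± 0.43 and 1.10 ± 0.37, while on the arrays labelled IRE1 RNAi eIF2Bgamma rose by 1.37 ± 0.43 and eIF2A fell, at -1.24 ± 0.40. After centring the translation factors gave 4 higher and 0 lower in control cells, 7 and 0 under XBP-1 RNAi, and 4 and 0 on the arrays labelled IRE1 RNAi, so the call of eIF2A was lost. Of 40 ribosome biogenesis genes 2 rose, the nucleostemin-type GTPases Ns2 at 1.33 ± 0.40 and Ns4 at 1.29 ± 0.42, while under XBP-1 RNAi 2 fell, Nop56, a nucleolar protein of the RNA-methylating particles, at -1.38 ± 0.38, and nclb at -1.24 ± 0.41. On the arrays labelled IRE1 RNAi 2 fell as well, Nop56 at -1.17 ± 0.38 and nop5 of the same particles at -1.14 ± 0.37. Beside these 2 of 40, 11.3% and 10.2% of all probes fell in the same groups. The centred counts for biogenesis were 6 higher and 1 lower in control cells, 1 and 8 under XBP-1 RNAi, and 1 and 7 on the arrays labelled IRE1 RNAi. Of the genes that set the rate of translation under stress, 14 were tested in control cells and 2 rose: Thor, the inhibitor of the cap-binding factor, at 2.73 ± 0.42, and PPP1R15, which restores eIF2, at 1.15 ± 0.39 (limma, adjusted p = 6.02e-06 and 0.0432). Thor also rose under XBP-1 RNAi, by 4.27 ± 0.42, and on the arrays labelled IRE1 RNAi, by 3.53 ± 0.42. Under XBP-1 RNAi crc, the fly counterpart of the stress factor ATF4, rose by 1.33 ± 0.41. Centred, these stress genes gave 3 higher and 0 lower in control cells, 5 and 1 under XBP-1 RNAi, and 4 and 0 on the arrays labelled IRE1 RNAi. Of all probes 11.7%, 14.5% and 8.83% rose and 12%, 16.5% and 13.7% fell on that scale. The median correlation of a list's probes with the mean of the members across the arrays, centred, was 0.84 for the further cytosolic ribosomal proteins. It was 0.29 for the mitochondrial ones, 0.27 for translation factors, 0.25 for biogenesis and 0.01 for all other probes, over up to 18 arrays that share the reference.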

How the data were processed

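Per the labels, 16 µg of total RNA per sample was labelled with Cy5, the authors normalized in NOMAD, a microarray database, and left out spots that were dim (less than 1.5-fold over background), had an R2 between channels below 0.5 or looked defective. The deposited table holds log ratios, read here as log2 of sample over reference, since its base and direction are not stated; scanner intensities were not used, and the number of arrays limits the precision. Probes were named by CG number through the RefSeq Release 6 gene table and not by the platform's symbols, which equalled that name for 0 of the 18 members that have one. Members, gene lists and tests were chosen with earlier results of these data known.

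Probes with 2 or more values in every group that a contrast compared were fitted with limma 3.58.1 (R 4.3.3; lmFit, eBayes) as 6 group means, in 9 contrasts, 2-sided, with Benjamini-Hochberg adjustment over all probes of a contrast and a threshold of 0.05; errors are SE from that fit. The script was tested on simulated data. Alternatives were centring, quantile normalization, completeness filters, a replicate block and leaving out each array. Named members are those past the threshold in any contrast, the 3 highest and 3 lowest effects of DTT in each cell group, 12 genes of well-known role (9 of them measured), and those most and least like the mean of the others; other genes are named where they passed. Some members that this rule names are not reported here singly, and all 41 stay in the fits, counts and medians. Letters A, B and C come from the sample titles. In all 21 same-letter pairs of arrays from compared groups, the 2 arrays deviated together from their group means (r 0.231 to 0.701). The same letter was the closest match in 19, so the block was fitted and is given where it changed a call. Nothing says that the 3 arrays of a group came from separate cultures, and p-values measure the spread between these arrays, which may be technical.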

Additional observations from a re-analysis of the deposited data

How the results depend on the processing

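The main counts of members past the threshold were 1 in control cells with DTT, 0 under XBP-1 RNAi, 1 on the arrays labelled IRE1 RNAi and 0 in the 6 other contrasts. Centring on all probes, centring on the probes measured on all arrays and, chosen after seeing the data, centring with those probes alone each gave 1, 1 and 1. Quantile normalization gave 3, 1 and 0, and a minimum of 1 value per group 1, 0 and 0. Shares of all probes are given above only for the main fit and for centring on all probes. Changes in count under the other settings are therefore not read as a result about the members. The replicate block gave 1, 1 and 2, and over all probes in control cells 425 higher and 267 lower became 688 and 469; as deposited its fit gave all probes 1 common variance, and its p-values may be too small. The replicate block with centring gave 6, 5 and 2, and also 2 for XBP-1 RNAi minus control and 1 for the arrays labelled IRE1 RNAi minus control, both with DTT. The share of all probes in that fit is not given here, so these counts are not read as a result about the members. The block changed no other call of a member. Leaving out 1 array at a time, as deposited or (chosen after seeing the data) centred, gave 0 to 2 in control cells, 0 to 1 under XBP-1 RNAi and 0 to 1 on the arrays labelled IRE1 RNAi. For arrays labelled IRE1 RNAi with DTT the mean member level was 0.59 as deposited, 1.16 centred on all probes and 1.06 centred on the complete probes; the other 5 group means moved by less than 1 SD. The cause of these changes was not tested. Scanner signals were not used, so what signal over background limits is not given.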
